A study of Rattus norvegicus with 9 samples.

Results

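The cluster of miR-322, miR-503, miR-351, miR-542 and miR-450 is a run of miRNA genes on the rat X chromosome, and its mature products were followed here in hippocampus after MK-801 and clozapine. The rows were chosen by miRNA number: every row named miR-322, miR-503, miR-351, miR-542 or miR-450, with any letter or arm ending, was a member. This gave 12 of the 633 mature miRNAs listed, the 5p and 3p arms of 6 hairpins. Of the 12 members, 9 had enough counts to be tested, as did 469 of all 633 miRNAs. The cluster was put forward with earlier levels and fold changes of these libraries in view, led by rno-miR-542-3p, so the members' values are a description and the choice adds no support to any of them.

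Hippocampi were dissected from Sprague-Dawley rats and their small RNA was sequenced in 3 groups of 3 libraries. The VEH group received saline for 14 days and again for 7 days. Rats of the MK-801 group received 0.2 mg/kg of MK-801 (dizocilpine, which blocks the NMDA type of glutamate receptor and serves as a drug model of schizophrenia) each day for 14 days and then saline for 7 days. In the MK-801+CLO group the same 14 days of MK-801 were followed by 7 days of clozapine, an atypical antipsychotic, at 10 mg/kg. All injections were intraperitoneal. The labels give postnatal day 21 as the age in one place and 5 weeks at the start of treatment in another. They speak of 10 rats per group without tying libraries to single animals or to pools, so p-values measure the spread between libraries, which may be technical.

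A miRNA hairpin is cut into a 5p and a 3p arm, and an arm loaded into an Argonaute protein pairs with target messenger RNAs mainly through its seed, bases 2 to 8. Rodent miR-322 (the counterpart of human miR-424) and miR-503 belong to the extended miR-15/16 family, known for repressing cyclins and other cell cycle genes and for rising as muscle cells leave the cell cycle. miR-351 carries the seed of miR-125, a family abundant in brain. The 3p arm of miR-542 is known for repressing survivin, an inhibitor of cell death, and the miR-450 genes lie next to it.

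Sequences of the members that the results turn on are shown 5′ to 3′ with the seed in capitals, together with a more abundant miRNA of the same seed where there is one. All 12 deposited sequences were identical to the RefSeq entries of assembly GRCr8, from which they are printed.
rno-miR-322-5p: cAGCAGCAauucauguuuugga
rno-miR-16-5p (outside the cluster): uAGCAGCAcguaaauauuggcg
rno-miR-503-5p: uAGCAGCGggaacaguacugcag
rno-miR-503-3p: gGAGUAUUguuuccgcugccugg
rno-miR-351-5p: uCCCUGAGgagcccuuugagccuga
rno-miR-125b-5p (outside the cluster): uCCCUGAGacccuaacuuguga
rno-miR-450a-5p: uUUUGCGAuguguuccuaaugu
rno-miR-450b-5p: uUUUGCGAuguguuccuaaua
rno-miR-542-3p: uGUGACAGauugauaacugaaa
rno-miR-542-5p: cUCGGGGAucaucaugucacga
miR-322-5p has all 7 seed bases of miR-16-5p, whereas miR-503-5p shares the leading 6. miR-351-5p has the 7 seed bases of miR-125b-5p. The 5p arms of miR-450a and miR-450b have 1 seed between them and are the same over their first 20 bases, so how reads were divided between these 2 rows is uncertain. No other listed miRNA had the seed of either miR-542 arm.

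In RefSeq GRCr8 the 6 hairpins lie on the minus strand of chromosome X between bases 137720933 and 137726241, a span of 5309 bases. The submitters' processing notes name build Rnor_6.0 and the table gives no positions, so these coordinates come from the RefSeq match alone. Along the strand the order is Mir322, Mir503, Mir351, Mir542, Mir450b-1 and Mir450a1. Gaps between neighbours are 220, 659, 2861, 1029 and 54 bases, which leaves miR-542 farthest from the hairpin before it. The nearest protein-coding genes are Plac1 on the Mir322 side and Hprt1 on the Mir450a1 side. An annotated long non-coding RNA, LOC102550366, overlaps Mir322, Mir503 and Mir351, but not Mir542 or the miR-450 hairpins. The miR-542 hairpin, chrX:137722176-137722254, is printed because both of its arms were well counted; capitals mark the mature arms.
Mir542 hairpin: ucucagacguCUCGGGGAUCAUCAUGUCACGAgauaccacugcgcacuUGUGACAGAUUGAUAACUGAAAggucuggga

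Library totals ran from 10665718 to 18284905 counts, and levels are given as CPM, each count divided by its library's total and scaled by the usual constant, with no length term. All 8 neuron-enriched miRNAs of the marker list were detected, with a summed level of 124014 to 152948 CPM. This sum rests mainly on miR-9a-5p, with a mean of 84597 CPM over the 9 libraries. In bulk tissue, fewer cells of a type and less RNA per cell cannot be told apart.

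The cluster was a small part of hippocampal miRNA, 0.142% of all counts, and almost all of it came from 3 of the 12 arms. miR-351-5p led with a mean of 1016 CPM over the 9 libraries, rank 69 of 633. It was followed by miR-322-5p at 179 CPM (rank 147) and miR-450a-5p at 164 CPM (rank 156). These 3 arms took on average 71.4%, 12.6% and 11.6% of the cluster's counts. Next came miR-542-3p at 24.2 CPM (rank 265), miR-542-5p at 12.8 CPM and miR-450b-5p at 12.2 CPM. miR-503-3p had 5.24 CPM, miR-322-3p 4.74 CPM and miR-503-5p 1.27 CPM. Some neighbours in this order had overlapping ranges over libraries: miR-322-5p (151 to 197 CPM) and miR-450a-5p (135 to 186 CPM), miR-542-5p and miR-450b-5p, and miR-503-3p and miR-322-3p. Library preparation recovers different small RNA sequences unequally, so an order of CPM between miRNAs is an order of counts.

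**Figure D1:**
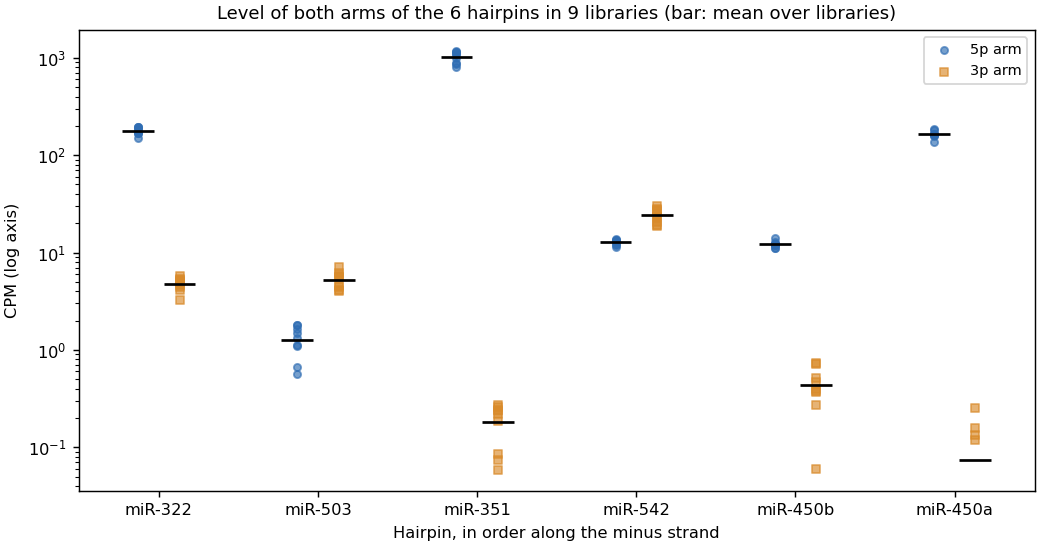
CPM on a log axis of the 5p arm (circles) and 3p arm (squares) of each hairpin in 9 libraries, with bars at the mean; the 5 libraries in which miR-450a-3p had a count of 0 cannot be drawn. The 5p arm is the higher one for miR-322, miR-351, miR-450b and miR-450a, and the 3p arm for miR-503 and miR-542.

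The 3 members left had too few counts to be tested. miR-450b-3p had 56 counts in all, 1 to 11 per library, with 0.0599 to 0.510 CPM in VEH, 0.470 to 0.740 CPM in MK-801 and 0.369 to 0.392 CPM in MK-801+CLO. miR-351-3p had 24 counts, 1 to 4 per library. miR-450a-3p had 9 counts and was at 0 in 5 libraries, and over all libraries the level that a 0 allows (3 counts) ran from 0.164 to 0.281 CPM. At this depth no difference between groups was detectable for the latter pair.

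The hairpins differed in how unequally their arms were counted. The higher arm held 99.98% of the hairpin's counts for miR-351, 99.96% for miR-450a, 97.4% for miR-322 and 96.6% for miR-450b, the 5p arm each time. For miR-503 the 3p arm held 80.5%, and miR-503-5p, the arm with the miR-15/16-like seed, was the minor one. The miR-542 hairpin was the most even, with 65.4% of its counts from the 3p arm.

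After MK-801, miR-542-3p had the highest fold change of the 9 tested members and miR-351-5p the lowest, and no member passed the test. miR-542-3p was at 23.2, 19.0 and 20.5 CPM in VEH replicates 1, 2 and 3, and at 26.6, 30.1 and 28.0 CPM in the MK-801 replicates. All 3 MK-801 libraries lay above all 3 VEH libraries, with means of 28.2 ± 1.79 against 20.9 ± 2.14 CPM (SD, n = 3 each). Counting error alone let the closest pair meet: the 95% Wilson intervals were 21.0 to 25.7 CPM in VEH replicate 1 and 24.1 to 29.3 CPM in MK-801 replicate 1. The log2 fold change was 0.45 ± 0.15 (SE), with an unadjusted p of 0.0115 and a Benjamini-Hochberg adjusted p of 0.588 in edgeR's quasi-likelihood test over 469 miRNAs. Over all tested miRNAs in this comparison the smallest adjusted p was 0.182.

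In VEH replicates miR-351-5p, with the miR-125 seed, was at 1088, 1169 and 1158 CPM, and in MK-801 replicates at 796, 1059 and 984 CPM. Every MK-801 library lay below every VEH library, though MK-801 replicate 1 stood lowest of all. Means were 947 ± 135 and 1138 ± 43.9 CPM (SD, n = 3 each). The log2 fold change was -0.25 ± 0.14 (SE), with an adjusted p of 0.814 in edgeR's quasi-likelihood test, and it was -0.15 without MK-801 replicate 1.

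The 5p arm of miR-542 was nearly level across the same libraries. Its VEH replicates had 13.3, 11.3 and 12.1 CPM and its MK-801 replicates 13.2, 13.2 and 12.8 CPM, and the groups overlapped. Its log2 fold change was 0.12 ± 0.12 (SE).

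The other arms of the miR-15/16 type and of miR-450 overlapped between VEH and MK-801. The VEH libraries had 168, 186 and 168 CPM of miR-322-5p and the MK-801 libraries 151, 194 and 197 CPM, a log2 fold change of 0.08 ± 0.12 (SE). For miR-450a-5p the VEH libraries had 161, 162 and 164 CPM and the MK-801 libraries 135, 165 and 186 CPM (0.02 ± 0.13). In both miRNAs MK-801 replicate 1 was the lowest of the 9 libraries, and the MK-801 libraries spread more than the VEH libraries. For miR-450b-5p they had 11.1, 12.3 and 12.1 CPM against 12.1, 12.9 and 14.2 CPM (0.16 ± 0.12). The remaining tested members, both arms of miR-503 and miR-322-3p, had log2 fold changes between -0.04 and 0.06 with SE of 0.23 to 0.40, on 19 to 108 counts per library.

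**Figure D2:**
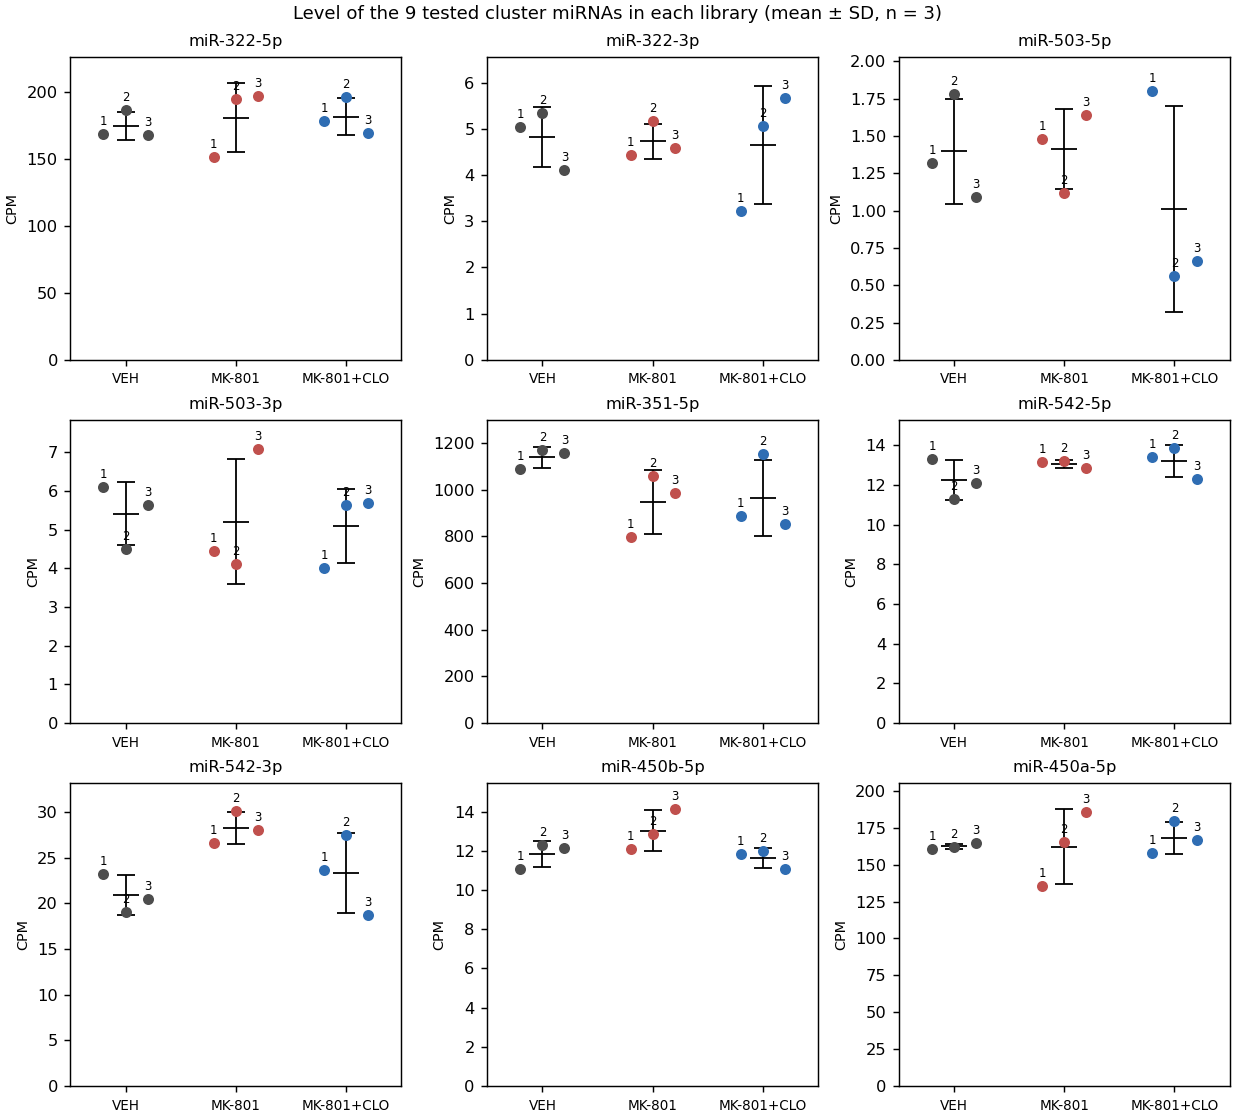
CPM of the 9 tested members in each library (points numbered by replicate), with the mean and SD of each group of 3; every axis starts at 0. miR-542-3p is higher in all 3 MK-801 libraries than in all 3 VEH libraries, miR-351-5p is lower, and the other groups of MK-801 and VEH overlap.

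Of the 9 tested members, 0 passed an adjusted p of 0.05 for MK-801 against VEH, beside 0% of all tested miRNAs. At an unadjusted p under 0.05 it was 1 of 9 (miR-542-3p), where 5.12% of all tested miRNAs reached it. Groups did not overlap in CPM for 2 of 9 members, beside 13.9% of all. The members' median log2 fold change was 0.06 and that of all tested miRNAs -0.02, with 6 members higher and 3 lower. With 9 members, both counts lie within 1 member of the background shares.

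With clozapine after MK-801, miR-542-3p spread over both other groups. It was at 23.7, 27.5 and 18.7 CPM in MK-801+CLO replicates 1, 2 and 3 (23.3 ± 4.38 CPM, SD, n = 3). Replicate 2 lay among the MK-801 libraries, replicate 3 below every VEH library and replicate 1 just above the VEH libraries. The place of replicate 3 depended on scaling. With library totals corrected for composition (TMM factors), the lowest MK-801+CLO library was at 19.6 CPM, inside the VEH range of 18.5 to 23.0 CPM. The log2 fold change against MK-801 was -0.24 ± 0.15 (SE; adjusted p = 0.680, edgeR quasi-likelihood test). Single libraries moved it over 1.5 times: it was -0.39 without MK-801+CLO replicate 2 and -0.12 without MK-801+CLO replicate 3. Against VEH it was 0.21 ± 0.15 (SE; adjusted p = 0.537), and 0.04 without replicate 2. These comparisons share libraries with each other and with MK-801 against VEH, so they are not independent.

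miR-351-5p was at 888, 1152 and 854 CPM in MK-801+CLO, from below most MK-801 libraries to the level of VEH. Its log2 fold change against MK-801 was 0.07 ± 0.14 (SE), and 0.15 without MK-801+CLO replicate 1. The sign turned without MK-801+CLO replicate 2 (-0.09), without MK-801 replicate 1 (-0.02) and with upper-quartile scaling (-0.03). Against VEH it was -0.18 ± 0.14 (SE), and it was -0.35 without MK-801+CLO replicate 2 and -0.09 without replicate 1. miR-322-5p was at 178, 196 and 169 CPM, miR-450a-5p at 158, 180 and 167 CPM and miR-542-5p at 13.4, 13.9 and 12.3 CPM. These 3 miRNAs overlapped with both other groups, as did miR-322-3p (3.22 to 5.68 CPM) and miR-503-3p (4.0 to 5.68 CPM).

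miR-450b-5p was at 11.8, 12.0 and 11.1 CPM, under the lowest MK-801 library by a narrow margin (12.1 CPM). Its log2 fold change against MK-801 was -0.13 ± 0.12 (SE; adjusted p = 0.759, edgeR quasi-likelihood test), and it was -0.04 without MK-801 replicate 3. After scaling by TMM factors, which correct library totals for differences in composition, those groups overlapped, while miR-450b-5p in MK-801 then lay above VEH.

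miR-503-5p was at 1.80, 0.563 and 0.664 CPM in MK-801+CLO, on 23, 6 and 9 counts. The VEH libraries had 1.32, 1.78 and 1.09 CPM and the MK-801 libraries 1.48, 1.12 and 1.64 CPM. MK-801+CLO replicates 2 and 3 were the lowest of all 9 libraries and replicate 1 was the highest. The log2 fold change against MK-801 was -0.43 ± 0.43 (SE; adjusted p = 0.761, edgeR quasi-likelihood test), and it was -1.12 without MK-801+CLO replicate 1.

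For MK-801+CLO against MK-801, 0 of 9 members passed an adjusted p of 0.05 (0% of all tested) and 0 of 9 an unadjusted one (8.32% of all). Groups did not overlap for 1 of 9 members, miR-450b-5p, beside 11.5% of all. For MK-801+CLO against VEH the counts were 0 of 9 (0% of all), 0 of 9 (14.9% of all) and 0 of 9 without overlap (17.5% of all). Median log2 fold changes of the members were 0.02 and 0.04, and those of all tested miRNAs -0.00 and 0.00.

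**Figure D3:**
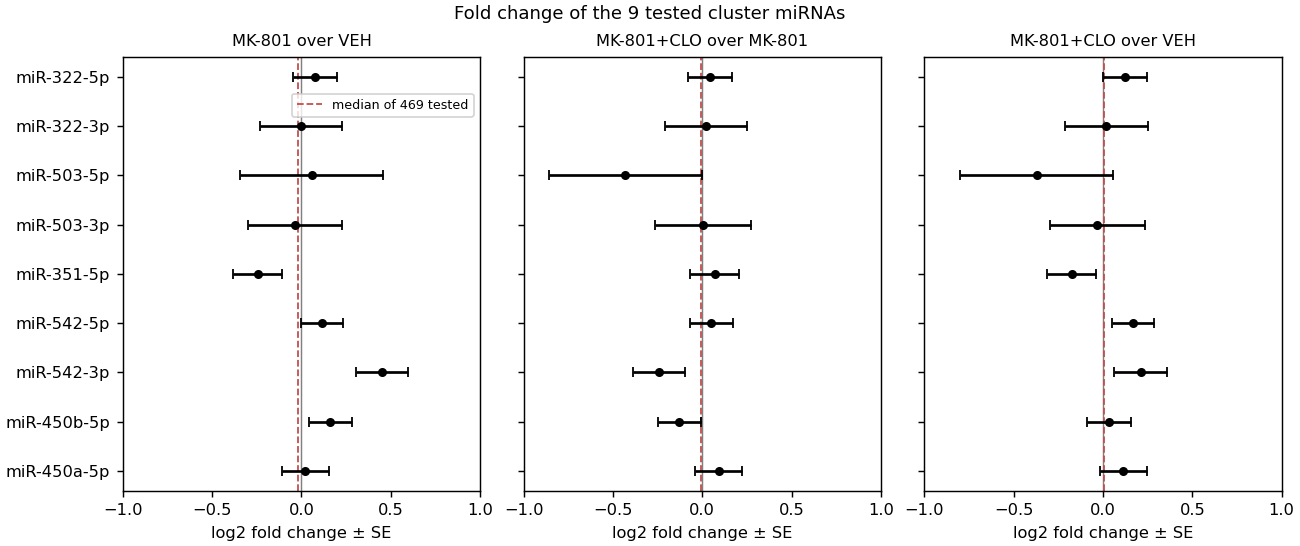
Log2 fold change of the 9 tested members in the 3 comparisons, with SE bars; the dashed line is the median of all 469 tested miRNAs. For MK-801 over VEH, miR-542-3p stands highest at 0.45 and miR-351-5p lowest at -0.25, and with clozapine the widest bars are those of miR-503-5p.

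Arms of 1 hairpin come from the same precursor, so their ratio compares counts within a library and needs no scaling between libraries. For miR-542 the 3p to 5p ratio was 1.75, 1.68 and 1.69 in VEH and 2.02, 2.28 and 2.18 in MK-801. The MK-801 libraries were all higher, with 2.16 ± 0.134 against 1.71 ± 0.0346 (SD, n = 3 each). The closest pair came from 388 over 222 counts in VEH replicate 1 and 395 over 196 counts in MK-801 replicate 1. No interval for counting error was computed for the ratios, and whether this gap exceeds it was not tested. In MK-801+CLO it was 1.77, 1.98 and 1.52 (1.76 ± 0.230), below every MK-801 library and overlapping VEH. The ratio shares its counts with the miR-542-3p level that brought the cluster forward, so it is given without a test.

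Ratios without overlap were common among hairpins with both arms tested. They made up 25 of 146 hairpins (17.1%) for MK-801 against VEH, 7 of them higher and 18 lower in MK-801. For MK-801+CLO against MK-801 it was 11.0% and for MK-801+CLO against VEH 15.8%. The cluster had 3 such hairpins, of which miR-542 alone lay apart in the first 2 comparisons, and none in the last. For miR-322 the 5p to 3p ratio was 33.4, 34.8 and 40.9 in VEH, 34.1, 37.6 and 42.9 in MK-801 and 55.4, 38.8 and 29.8 in MK-801+CLO. For miR-503 the 3p to 5p ratio ran from 2.52 to 5.15 in VEH, 3.00 to 4.32 in MK-801 and 2.22 to 10.0 in MK-801+CLO. Both overlapped in all comparisons.

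**Figure D4:**
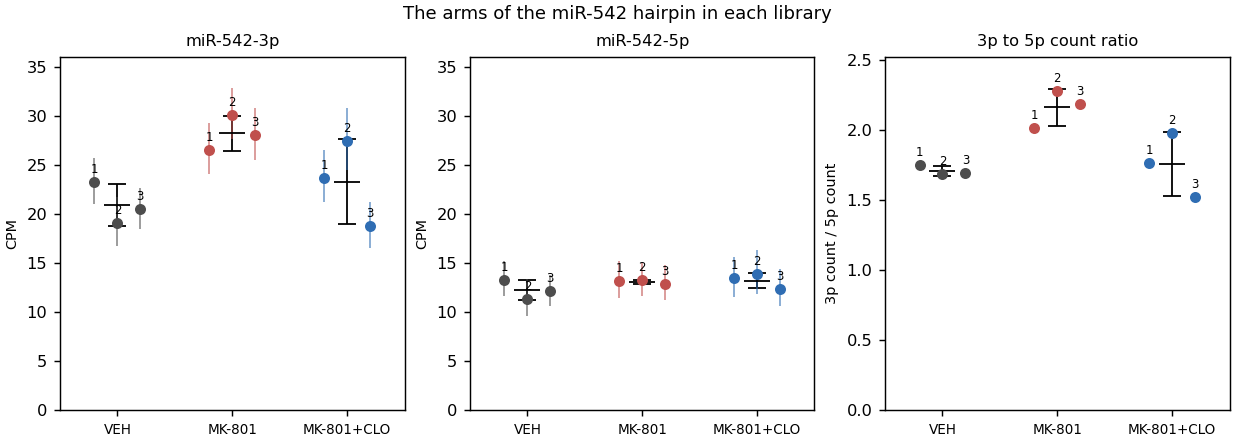
CPM of miR-542-3p and miR-542-5p in each library with 95% Wilson intervals (thin lines), and the 3p to 5p count ratio, with the mean and SD of each group of 3. The 3p arm and the ratio are higher in MK-801 than in VEH in every library, while the 5p arm lies between 11.3 and 13.9 CPM in all 9.

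Summed over its 12 arms the cluster had 1477, 1572 and 1546 CPM in the VEH libraries. The MK-801 libraries had 1146, 1486 and 1436 CPM and the MK-801+CLO libraries 1283, 1593 and 1245 CPM. Group means were 1532 ± 49.2, 1356 ± 183 and 1374 ± 191 CPM (SD, n = 3 each), and the ranges of VEH and MK-801 overlapped by a narrow margin. Since miR-351-5p makes up most of this sum, the shares of the others depend on its level as well as on their own. Its share was 73.7% to 74.9% in VEH, 68.5% to 71.3% in MK-801 and 68.6% to 72.3% in MK-801+CLO, lower in every library of both treated groups than in VEH. The share of miR-542-3p was 1.37% ± 0.186 in VEH, 2.10% ± 0.192 in MK-801 and 1.69% ± 0.173 in MK-801+CLO (SD, n = 3 each). Those of miR-322-5p, miR-450a-5p and miR-450b-5p were also higher in every MK-801 library than in VEH. In CPM these arms overlapped between the groups, though miR-450b-5p did not after scaling by TMM factors. The shares of miR-322-5p and miR-450a-5p were higher than in VEH in every MK-801+CLO library as well, while that of miR-450b-5p overlapped. A share within the cluster has no background over all tested miRNAs.

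Seeds set the members beside their more abundant relatives. The miR-15/16 seed AGCAGCA was carried by miR-322-5p and 5 other listed miRNAs, with a summed mean of 6515 CPM, of which miR-16-5p gave 5549. miR-322-5p was 2.80% ± 0.331 of this pool in VEH, 2.85% ± 0.194 in MK-801 and 2.61% ± 0.304 in MK-801+CLO. The miR-125 seed CCCUGAG was carried by miR-351-5p, miR-125a-5p and miR-125b-5p, with a summed mean of 27286 CPM. miR-351-5p was 3.98% ± 0.242 of it in VEH, 3.68% ± 0.578 in MK-801 and 3.52% ± 0.625 in MK-801+CLO (SD, n = 3 each). Both shares overlapped between all groups. At 3.03% to 4.23% over the 9 libraries, the most abundant member of the cluster was a small part of its seed family throughout. None of the 7 other miRNAs of these seeds passed an adjusted p of 0.05 in any comparison with edgeR's quasi-likelihood test. The smallest adjusted p among them was 0.190, for miR-497-5p in MK-801+CLO against VEH, with a log2 fold change of 0.33 ± 0.10 (SE). miR-542-3p and miR-542-5p had no same-seed partner in the table.

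Other miRNAs from anywhere on the X chromosome are given beside the cluster. RefSeq places 79 other listed miRNAs on that chromosome, 4 of them on another chromosome as well. Of the 79, 44 were tested, and none passed an adjusted p of 0.05 in edgeR's quasi-likelihood test. For MK-801 against VEH, 20 were higher and 24 lower, with a median log2 fold change of -0.07 and 3 (6.82%) at an unadjusted p under 0.05. For MK-801+CLO against MK-801, 8 were higher and 36 lower, with a median of -0.13 and 2 (4.55%) at that p. For MK-801+CLO against VEH, 15 were higher and 29 lower, with a median of -0.10 and 10 (22.7%) at that p. Of all tested miRNAs, 5.12%, 8.32% and 14.9% reached that p in these comparisons, in the same order. Their median log2 fold changes were -0.02, -0.00 and 0.00. Whether the X-chromosome miRNAs differed from all tested ones was not tested. The cluster's most abundant arm ranked 4 among the 91 listed X-chromosome miRNAs and miR-542-3p ranked 28. The difference between the cluster and these miRNAs was not tested.

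Pairs of members ranged widely in how alike their levels were across libraries. Of the 36 pairs of tested members, 25 had a Pearson r above 0 and 11 below in log2 CPM over the 9 libraries, with a median of 0.25. Of the 11 pairs below 0, 7 held miR-503-5p, which had 6 to 25 counts per library. The highest r were those of miR-322-5p with miR-450a-5p (r = 0.861, rho = 0.583), both lowest in MK-801 replicate 1, of miR-450a-5p with miR-503-3p (r = 0.724, rho = 0.767) and of the arms of miR-542 (r = 0.705, rho = 0.567). miR-542-3p and miR-351-5p, the arms with the highest and lowest fold change after MK-801, had an r of -0.12. These values share library depth and scaling, include the group differences and are given without p.

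Outside the cluster, the miRNAs whose log2 CPM was most like that of miR-542-3p were miR-21-3p (r = 0.782, rho = 0.783), miR-146b-5p (r = 0.781, rho = 0.750) and miR-21-5p (r = 0.773, rho = 0.733). Without MK-801 replicate 3 and VEH replicate 2, the pair of libraries farthest from the median, r was 0.657, 0.626 and 0.665. miR-542-5p ranked 12 and miR-450b-5p 36 of the 468 others by the same measure. Most like miR-351-5p were miR-409b (r = 0.816, rho = 0.80), miR-6318 (r = 0.802, rho = 0.733) and miR-215 (r = 0.793, rho = 0.750). Without MK-801 replicate 1 and MK-801+CLO replicate 2, r was 0.783, 0.827 and 0.589. All were picked as the highest of 468 over 9 libraries, so they are a description without p.

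Spread within groups is given as a mean over 3 groups of 3 libraries, without a test. The mean coefficient of variation within a group was 5.28% for miR-542-5p, 5.97% for miR-450b-5p and 7.75% for miR-450a-5p. It was 9.25% for miR-322-5p, 11.7% for miR-351-5p, 11.8% for miR-542-3p and 16.4% for miR-322-3p. The miR-503 arms spread most, 21.7% for 3p and 37.5% for 5p, beside a median of 12.9% over all tested miRNAs of any level. These arms had 51 to 108 and 6 to 25 counts per library, and counting error was not separated from this spread.

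Markers of other cell types were read beside these values as summed CPM. For MK-801 against VEH, 0 of 6 marker lists (neuron-enriched, vascular, oligodendrocyte, red blood cell, choroid plexus with ependyma, striated muscle) had groups that did not overlap. Single markers did lie apart: miR-138-5p was at 21386 to 22640 CPM in VEH and 23716 to 37470 in MK-801. In the vascular list miR-126a-5p was higher in MK-801 (4826 to 5470 against 4506 to 4776 CPM in VEH). There miR-145-5p was lower (243 to 300 against 307 to 423 CPM). The other markers overlapped between these groups, and ranges lay apart for 13.9% of all tested miRNAs. The 5 choroid plexus and ependyma markers summed to 3695 to 10427 CPM in VEH, 3465 to 4128 in MK-801 and 2400 to 3648 in MK-801+CLO, lower in MK-801+CLO than in every VEH library. The 4 vascular markers summed to 21837 to 25137 CPM in VEH, 22712 to 24163 in MK-801 and 25681 to 30246 in MK-801+CLO, higher in MK-801+CLO than in every library of both other groups. Both sums rest mainly on 1 miRNA, and not all markers lay on the same side. miR-143-3p, the largest of the vascular list, averaged 17775 CPM in the VEH and 21311 CPM in the MK-801+CLO libraries, while miR-145-5p averaged 353 ± 61.5 and 295 ± 136 CPM (SD, n = 3 each). In the choroid plexus and ependyma list miR-204-5p averaged 4998 and 2149 CPM in these groups, and miR-211-5p 11.6 ± 1.02 and 17.1 ± 3.90 CPM (SD, n = 3 each). The part of these markers in the members' values was not tested in any comparison. The 4 striated muscle markers, of a tissue for which miR-322 and miR-503 are well known, summed to 20.6 to 36.1 CPM and the defining miR-1-3p averaged 0.251 CPM.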

How the data were processed

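The authors deposited 1 table with whole-number counts per mature miRNA and library, and values headed TPM that equal CPM of those counts (largest relative difference 0.000473%), so they are called CPM. Each miRNA's sequence and length are also in the table. The submitters' processing notes name cutadapt 1.14, Bowtie, DESeq and Rnor_6.0 without roles. The handling of reads matching several miRNAs is not stated in the labels. There were 22 blank or stray lines left out and 1 split name rejoined.

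edgeR 4.0.16 in R 4.3.3 was fitted to all 9 libraries: filterByExpr (469 of 633 miRNAs, 99.997% of counts), TMM, glmQLFit and glmQLFTest with 1 mean per group, and Benjamini-Hochberg adjustment over 469 miRNAs at 0.05. edgeR's common biological coefficient of variation came to 17.2%. As SE serves the absolute log2 fold change over the square root of F. Correlations used TMM-scaled log2 CPM with a prior count of 2. Wilson intervals (95%, SciPy 1.17.1) and floors of 3 counts cover counting error only. The fit was tested on simulated data. Sequences, hairpins and neighbours came from RefSeq GRCr8.

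The members, the same-seed, X-chromosome and marker lists and the tests were chosen with earlier results of these data known. All members were named, with same-seed miRNAs and, per reference member, the 3 miRNAs most like it. Alternatives were DESeq2 1.42.0, limma voom 3.58.1, other scalings and filters, only the libraries compared, a replicate block and leaving out each library. TMM-scaled CPM for ranges was added after seeing the data.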

Additional observations from a re-analysis of the deposited data

How the results depend on the processing

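With edgeR, 0 miRNAs passed an adjusted p of 0.05 in each comparison, 24, 39 and 70 reaching an unadjusted p under 0.05 for MK-801 against VEH, MK-801+CLO against MK-801 and MK-801+CLO against VEH. DESeq2 called 1, 2 and 11, and limma voom 0 in each. Leaving out 1 library gave 0 to 1, 0 to 2 and 0 to 7 calls: the 1 without MK-801 replicate 2, the 2 and the 7 without MK-801+CLO replicate 2. No member was called under any of these settings. Ranges on TMM-scaled CPM, tried after seeing the data, lay apart for 3, 0 and 0 of 9 members in place of 2, 1 and 0. Over all 469 tested miRNAs they lay apart for 58, 54 and 84 in place of 65, 54 and 82.

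The 27 fold changes of members had 477 values under alternatives, of which 5 moved beyond the spread: miR-503-5p to -1.12 and -1.06 without MK-801+CLO replicate 1, miR-351-5p to -0.35 against VEH without MK-801+CLO replicate 2, and, with upper-quartile factors for MK-801+CLO against MK-801, miR-450b-5p to -0.24 and miR-542-5p to -0.06. Those factors moved the median of all miRNAs there from -0.00 to -0.12. Direction changed under some alternative for 14 of the 27. For miR-542-3p, MK-801 against VEH stayed between 0.39 and 0.54 with unadjusted p of 0.00507 to 0.0460 and adjusted p of 0.401 to 0.984. None of 135 values of shares and arm ratios moved by more than the spread, but this cannot show that they are stable. Most of these values left out 1 of 3 libraries, which cannot move a mean beyond the SD of those 3.

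Same-numbered libraries did not deviate together: r was -0.345 to 0.129 over 9 pairs, and 1 of 9 libraries correlated best with its own number. With the number as a replicate block 0 miRNAs were called in each comparison, and miR-542-3p was at 0.45 (adjusted p = 0.890, edgeR).

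Depth limits the 3p arms of miR-351, miR-450a and miR-450b and both arms of miR-503, and 3 libraries a group limit all comparisons.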
